A study of Mus musculus with 12 samples.

Results

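The 48 genes described here are ligands, receptors, SMAD proteins, modulators and targets of the TGF-beta and BMP pathways. They were chosen by name, with earlier results of these data known, from the 55421 genes of the deposited count files. All 48 were matched by Ensembl identifier and had more than 20 reads over the 12 libraries, so all belong to the 22592 genes that were tested. The libraries were made from poly(A) RNA of the hippocampus of mice on a C57B/L6 background, with 3 biological replicates in each of 4 groups. Each replicate is taken here to be a single mouse, which the labels do not state. WT-Veh were wild-type mice given vehicle and WT-Nut3 wild-type mice given Nutlin-3, an inhibitor of the p53 regulator MDM2. KO-Veh and KO-Nut3 were *Fmr1* knockout (KO) mice, a model of Fragile X syndrome, given vehicle or Nutlin-3. Injections were intraperitoneal in mice aged 2 months, and hippocampi were collected when they were 6 months old, so each comparison was made long after treatment. The *Fmr1* KO lacks the protein in all cells, and the tissue was not sorted, so a level is an average over all cell types of the dissected piece. In such bulk tissue, more cells of a type and more RNA per cell cannot be told apart.

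TGF-beta and BMP ligands are secreted proteins that bind pairs of type I and type II receptor kinases. The receptors phosphorylate receptor SMADs, which enter the nucleus with the common SMAD, SMAD4, and regulate target genes such as those of the ID family. Extracellular antagonists trap the ligands, latent binding proteins store TGF-beta in the matrix, and inhibitory SMADs dampen the receptors. In the adult hippocampus, BMP signaling is known for its part in the balance between quiescent and dividing neural stem cells.

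Reads counted on genes ranged from 17150820 in WT-Veh RH2 to 20040482 in WT-Nut3 RH9, where RH and a number come from the library label. Levels are given as CPM, the read count of a gene relative to the TMM-scaled library size, and 1 CPM corresponded to between 16.7 and 20.1 reads. *Fmr1* was measured first as a check of the genotype. Its level was 79.5, 75.3 and 77.7 CPM in WT-Veh (RH2, RH5 and RH15) and 75.2, 74.0 and 78.3 CPM in WT-Nut3 (RH1, RH9 and RH14). It was 32.7, 32.5 and 37.3 CPM in KO-Veh (RH7, RH10 and RH16) and 30.6, 28.5 and 35.7 CPM in KO-Nut3 (RH6, RH8 and RH13). Every KO library was below every WT library, and libraries are named in these orders throughout.

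Markers of hippocampal neurons were abundant in every library. *Camk2a*, a kinase of excitatory neurons, ranged from 2754 CPM in KO-Nut3 RH6 to 4861 CPM in WT-Veh RH2. Several libraries stood apart in genes of tissue that borders the hippocampus. *Ttr*, the main secreted protein of the choroid plexus, was at 3091, 314 and 4520 CPM in KO-Nut3 and 4215 CPM in WT-Nut3 RH9, against 3.15 to 18.2 CPM in the other 8 libraries. The summed level of 13 fibroblast markers of meninges and stroma was 224 CPM in WT-Veh RH5 and 298 CPM in KO-Nut3 RH8, against 60.3 to 154 CPM in the other libraries. *Tcf7l2*, a marker of the thalamus, was at 32.7 CPM in KO-Nut3 RH6 and at 4.75 to 7.33 CPM elsewhere, and the summed level of 8 hippocampal neuron markers was lowest in KO-Nut3 RH6, at 3470 CPM against 4870 to 5983 CPM. These libraries are named again beside the results that rest on them.

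Levels were compared between genes per kilobase of exon (RPKM). In WT-Veh the highest member was *Acvr1b*, a type I receptor for activins, at 32.6 ± 1.17 RPKM (SD, n = 3). It was followed by the ID genes *Id2* at 23.5 ± 2.02 RPKM and *Id4* at 19.8 ± 3.32 RPKM, the BMP antagonist *Chrd* (chordin) at 18.6 ± 0.945 RPKM and the matrix protein *Ltbp4* at 18.2 ± 1.39 RPKM. *Id4*, *Chrd* and *Ltbp4* differed by less than their spread. The ligand with the highest level was *Tgfb2*, at 10.1 ± 1.46 RPKM, followed by *Gdf11* at 6.33 ± 0.035 RPKM. *Bmp6* at 2.77 ± 1.69 RPKM, *Tgfb3* at 2.47 ± 0.472 RPKM, *Gdf10* at 2.43 ± 0.407 RPKM and *Bmp7* at 2.34 ± 1.63 RPKM did not differ beyond their spread. The lowest members were *Fst* (follistatin) at 0.203 ± 0.0408 RPKM, *Bmp5* at 0.171 ± 0.0887 RPKM and *Ltbp2* at 0.0475 ± 0.0311 RPKM.

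**Figure D1:**
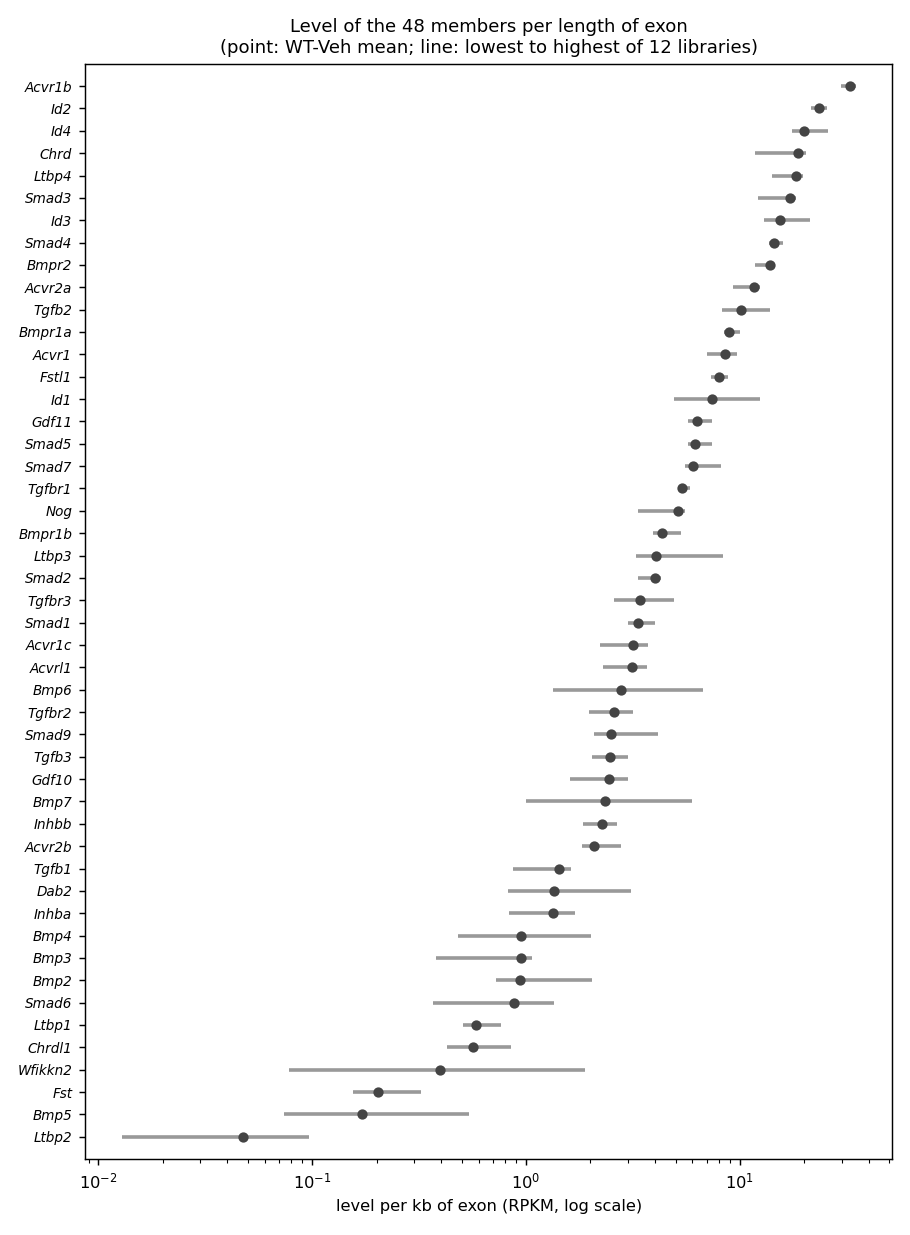
Level of each of the 48 members in RPKM (horizontal log axis), with a point at the WT-Veh mean (n = 3) and a line from the lowest to the highest of the 12 libraries. Members run from *Acvr1b* at 32.6 RPKM to *Ltbp2* at 0.0475 RPKM, and the longest lines among the genes with a WT-Veh mean above 1 RPKM belong to *Bmp6*, *Bmp7* and *Dab2*.

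Most members varied little among the 12 mice. The ratio of the highest to the lowest library was 1.14 for *Tgfbr1*, the type I receptor of TGF-beta, 1.16 for *Smad4* and 1.17 for *Acvr1b*. It was 24.1 for *Wfikkn2*, a secreted inhibitor of GDF8 and GDF11, 7.29 for *Bmp5*, 5.94 for *Bmp7*, 5.07 for *Bmp6*, 4.18 for *Bmp4* and 3.75 for *Dab2*, an endocytic adaptor that binds TGF-beta receptors and SMADs. *Ltbp2* had a ratio of 7.51, at levels of at most 0.789 CPM.

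Whether Nutlin-3 changed these genes in the *Fmr1* KO was asked by comparing KO-Nut3 with KO-Veh. The members that rose were a BMP ligand (*Bmp6*), a secreted antagonist (*Wfikkn2*) and the adaptor *Dab2*. These 3 of 48 members (6.25%) passed an adjusted *P*-value of 0.05 in edgeR's quasi-likelihood test, against 0.195% of all genes tested that were called higher, and no member was called lower. The list was made with earlier results of these data known, so shares of members beside all genes are descriptive here and below. No member was called when all 12 libraries were fitted together (edgeR, adjusted *P* = 0.30 for each of the 3), and *Wfikkn2* was not called when KO-Veh RH7 or KO-Veh RH16 was left out (adjusted *P* = 0.091 and 0.077 in edgeR). The same 3 were called when the number in the library label (up to RH8, or from RH9) was added as a block, against 0.0841% of all genes called higher. The labels do not say that this number marks a batch. With DESeq2 9 members (18.8%) were called, all higher, against 1.31% of the genes to which it gave an adjusted *P*-value, and the 6 added were *Bmp4*, *Bmp7*, *Tgfbr2*, *Tgfbr3*, *Smad6* and *Ltbp3*. The median log2 fold change of the 48 members was 0.038, beside 0.0034 over all genes tested.

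*Bmp6* encodes a BMP ligand also known for its part in iron balance. It was at 7.64, 5.19 and 6.72 CPM in KO-Veh and 24.3, 26.3 and 23.9 CPM in KO-Nut3. In WT-Veh it was at 6.27, 18.3 and 7.78 CPM and in WT-Nut3 at 8.67, 21.4 and 6.56 CPM. The KO-Nut3 libraries lay close together above all others, and WT-Veh RH5 and WT-Nut3 RH9 stood between them and the remaining 7 libraries. *Bmp6* rose by 1.93 ± 0.14 on the log2 scale (SE), or 3.80-fold, in KO-Nut3 over KO-Veh (edgeR, adjusted *P* = 0.0013). The gene lies at chr13:38345107-38500302 on the plus strand (mm10), and its span overlaps *Txndc5* and *4930579J19Rik* on the other strand.

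*Wfikkn2* was at 0.981, 0.395 and 0.968 CPM in KO-Veh, which stands for 19, 7 and 17 reads, and at 7.21, 5.84 and 5.33 CPM in KO-Nut3. In WT-Veh it was at 0.299, 3.57 and 0.670 CPM and in WT-Nut3 at 1.32, 2.93 and 0.393 CPM. Again the KO-Nut3 libraries were highest, followed by WT-Veh RH5 and WT-Nut3 RH9. The gene, at chr11:94235956-94246005 on the minus strand, rose by 2.95 ± 0.31 on the log2 scale, or 7.74-fold (edgeR, adjusted *P* = 0.0085).

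*Dab2* was at 8.36, 7.44 and 6.78 CPM in KO-Veh and 22.6, 19.4 and 22.6 CPM in KO-Nut3. In WT-Veh it was at 6.03, 13.3 and 10.5 CPM and in WT-Nut3 at 6.85, 17.9 and 7.07 CPM. The order of the 5 highest libraries put the KO-Nut3 mice first, then WT-Nut3 RH9 and WT-Veh RH5. The gene, at chr15:6299788-6440712 on the plus strand, rose by 1.51 ± 0.12 on the log2 scale, or 2.85-fold (edgeR, adjusted *P* = 0.0016).

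**Figure D2:**
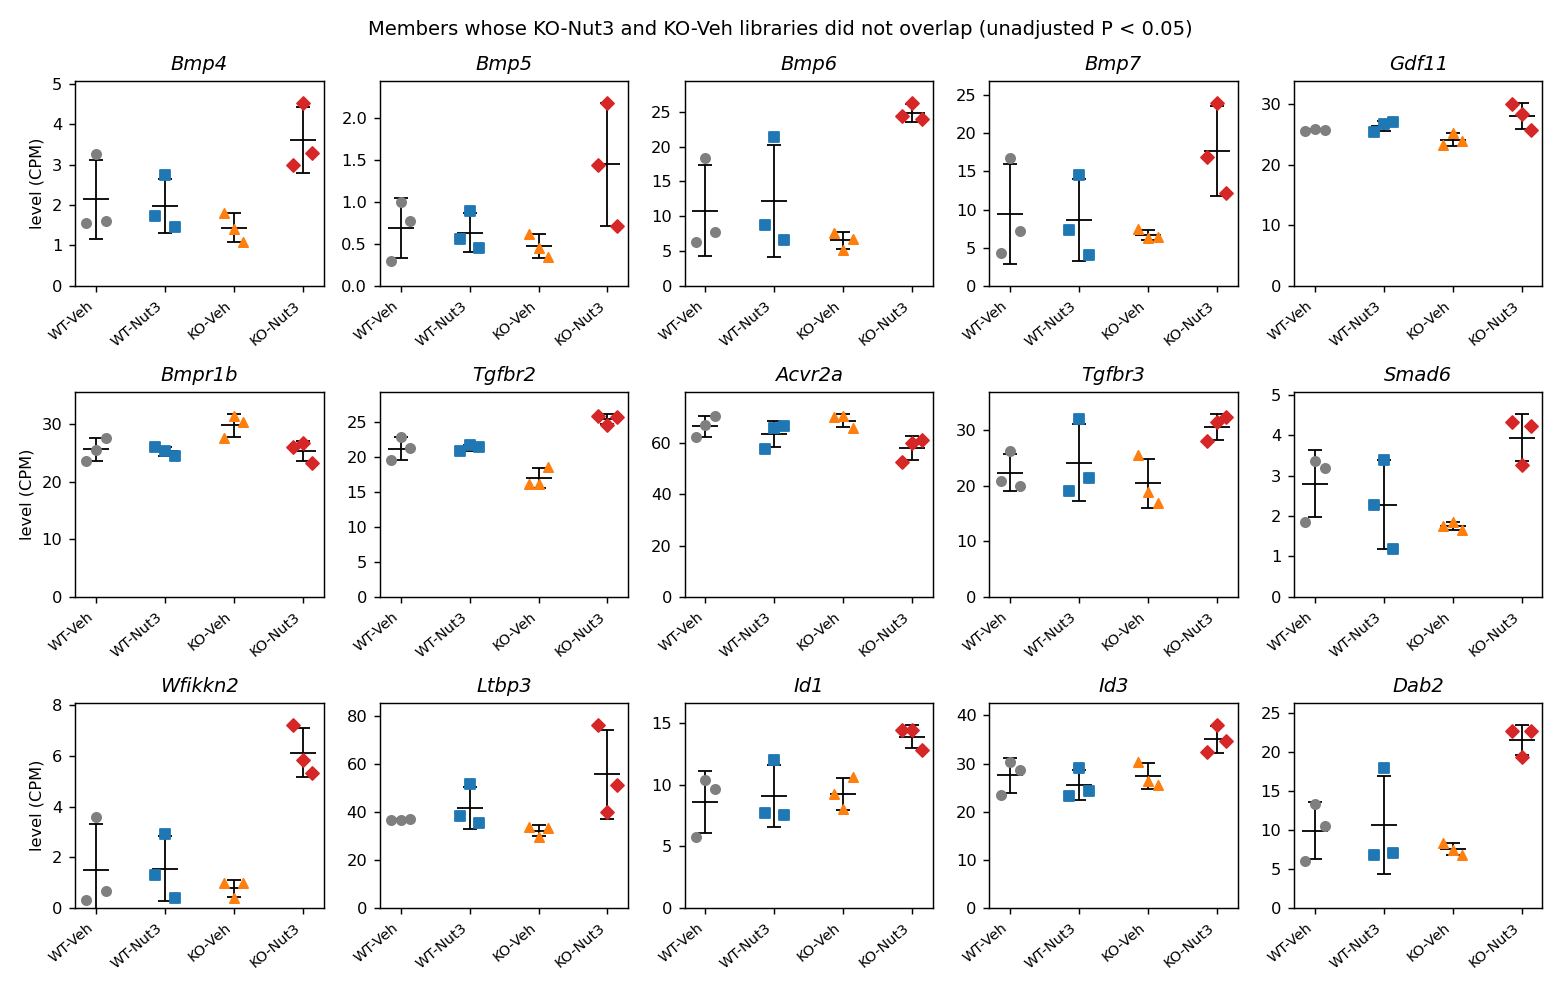
Level in CPM (vertical axes from 0) of the 15 members whose KO-Nut3 and KO-Veh libraries did not overlap, with a point for each mouse and a bar for the mean ± SD (n = 3), drawn no lower than 0. *Bmp6*, *Dab2* and *Wfikkn2* are highest in the 3 KO-Nut3 mice, and 1 mouse in each WT group lies above its group.

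A further 10 members were higher in every KO-Nut3 library than in every KO-Veh library without passing the adjusted threshold in edgeR. With the 3 called members they made 13 of 48 (27.1%), against 7.85% of all genes tested. In the other direction 2 members (4.17%) did not overlap, against 5.44% of all genes tested. All 15 had an unadjusted *P*-value under 0.05, which 31.2% of the members and 7.6% of all genes reached. By role they were 5 of 8 BMP and GDF ligands, 1 of 7 type I receptors, 2 of 4 type II receptors, the co-receptor *Tgfbr3*, 1 of 2 inhibitory SMADs, 1 of 6 antagonists, 1 of 4 latent binding proteins, 2 of 4 ID genes and *Dab2*. None was a TGF-beta ligand, an activin subunit or a receptor SMAD.

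Among the ligands, *Bmp7* came closest to the threshold. It was at 7.43, 6.20 and 6.38 CPM in KO-Veh and 16.9, 24.0 and 12.1 CPM in KO-Nut3, and at 4.24, 16.8 and 7.21 CPM in WT-Veh and 7.25, 14.6 and 4.04 CPM in WT-Nut3. The log2 fold change in the KO was 1.40 ± 0.23 (edgeR, adjusted *P* = 0.054; DESeq2, adjusted *P* = 5.6e-07). *Bmp7* in WT-Veh RH5 and WT-Nut3 RH9 lay within the range of the KO-Nut3 libraries.

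*Bmp4*, a ligand known to hold neural stem cells in quiescence, was at 1.81, 1.41 and 1.08 CPM in KO-Veh and 2.99, 4.53 and 3.30 CPM in KO-Nut3. It was at 1.55, 3.26 and 1.60 CPM in WT-Veh and 1.72, 2.73 and 1.46 CPM in WT-Nut3. The log2 fold change was 1.32 ± 0.27 (edgeR, adjusted *P* = 0.13), and the gene was low, with 19 to 79 reads in a library. *Bmp5* was lower still, with 5 to 38 reads. It was at 0.619, 0.451 and 0.342 CPM in KO-Veh, 1.44, 2.18 and 0.714 CPM in KO-Nut3, 0.299, 0.998 and 0.773 CPM in WT-Veh and 0.558, 0.894 and 0.449 CPM in WT-Nut3. Its log2 fold change of 1.59 ± 0.47 did not pass (edgeR, adjusted *P* = 0.35). Only KO-Nut3 RH6 and RH8 exceeded the WT libraries for *Bmp5*.

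*Gdf11*, a ligand of the activin-like branch, was at 23.2, 25.3 and 23.9 CPM in KO-Veh and 29.9, 28.4 and 25.8 CPM in KO-Nut3, a log2 fold change of 0.21 ± 0.09 (edgeR, adjusted *P* = 0.62). Its WT levels were narrow, at 25.6, 25.8 and 25.7 CPM in WT-Veh and 25.4, 26.7 and 27.0 CPM in WT-Nut3. Of the TGF-beta ligands, *Tgfb3* had the widest difference. It was at 9.03, 8.01 and 10.1 CPM in KO-Veh and 8.15, 8.71 and 8.79 CPM in KO-Nut3, and its log2 fold change of -0.09 ± 0.14 had an adjusted *P*-value of 0.91 in edgeR. In WT-Veh it was at 6.87, 8.14 and 10.04 CPM and in WT-Nut3 at 9.13, 8.35 and 9.20 CPM, so all 4 groups overlapped. The approximate 95% interval of this difference ran from -0.35 to 0.18. The activin subunit *Inhba* was at 7.59, 9.70 and 10.8 CPM in KO-Veh and 5.32, 10.3 and 7.58 CPM in KO-Nut3 (log2 fold change -0.28 ± 0.23; edgeR, adjusted *P* = 0.80). It was at 9.49, 6.25 and 9.79 CPM in WT-Veh and 8.06, 9.14 and 9.36 CPM in WT-Nut3, again with overlap of all groups.

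Among the receptors, *Tgfbr2*, the type II receptor that binds TGF-beta, was lowest in KO-Veh and highest in KO-Nut3. It was at 16.1, 16.2 and 18.6 CPM in KO-Veh and 25.9, 24.6 and 25.8 CPM in KO-Nut3. WT-Veh lay between, at 19.5, 22.9 and 21.2 CPM, as did WT-Nut3, at 20.8, 21.7 and 21.4 CPM. The log2 fold change of 0.58 ± 0.09 between the KO groups narrowly missed the threshold (edgeR, adjusted *P* = 0.055; DESeq2, adjusted *P* = 0.0012). *Tgfbr3*, the co-receptor betaglycan, was at 25.4, 18.9 and 16.9 CPM in KO-Veh and 28.0, 31.4 and 32.3 CPM in KO-Nut3 (log2 fold change 0.58 ± 0.14; edgeR, adjusted *P* = 0.22). It was at 20.9, 26.2 and 19.9 CPM in WT-Veh and 19.0, 32.1 and 21.4 CPM in WT-Nut3, where RH9 reached the level of KO-Nut3.

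The 2 members that were lower in every KO-Nut3 library than in every KO-Veh library were both receptors. *Bmpr1b*, a type I BMP receptor, was at 27.7, 31.5 and 30.4 CPM in KO-Veh and 26.1, 26.7 and 23.3 CPM in KO-Nut3 (log2 fold change -0.24 ± 0.09; edgeR, adjusted *P* = 0.58). It was at 23.7, 25.6 and 27.6 CPM in WT-Veh and 26.1, 25.3 and 24.4 CPM in WT-Nut3, so KO-Veh was the group above the rest. *Acvr2a*, a type II activin receptor, was at 70.0, 70.4 and 65.7 CPM in KO-Veh and 52.6, 60.1 and 61.3 CPM in KO-Nut3 (log2 fold change -0.25 ± 0.07; edgeR, adjusted *P* = 0.38). Its WT levels were 62.2, 66.9 and 70.4 CPM in WT-Veh and 57.5, 65.9 and 66.8 CPM in WT-Nut3. WT-Nut3 overlapped both KO groups, and WT-Veh overlapped KO-Veh but lay above KO-Nut3. *Acvrl1*, a type I receptor of endothelial cells, had the widest difference of its role, with 11.4, 9.75 and 12.5 CPM in KO-Veh and 14.97, 15.4 and 11.7 CPM in KO-Nut3 (log2 fold change 0.32 ± 0.15; edgeR, adjusted *P* = 0.67). It was at 9.97, 15.7 and 14.4 CPM in WT-Veh and 11.6, 10.8 and 11.8 CPM in WT-Nut3.

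Inside the cell, the receptor SMADs stayed within a narrow range of log2 fold changes, from -0.20 for *Smad3* to 0.37 for *Smad9*. *Smad9* was at 12.96, 14.4 and 11.2 CPM in KO-Veh and 22.2, 13.4 and 14.1 CPM in KO-Nut3 (log2 fold change 0.37 ± 0.19; edgeR, adjusted *P* = 0.72), and at 13.5, 14.97 and 11.8 CPM in WT-Veh and 16.8, 13.6 and 14.5 CPM in WT-Nut3. KO-Nut3 RH6, the library with the high *Tcf7l2* level, alone exceeded the rest. *Smad4* was at 53.9, 57.2 and 52.9 CPM in KO-Veh, 51.4, 55.3 and 56.3 CPM in KO-Nut3, 58.0, 51.5 and 50.7 CPM in WT-Veh and 54.5, 57.4 and 58.7 CPM in WT-Nut3. Its log2 fold change of -0.012 ± 0.069 gives an approximate 95% interval from -0.15 to 0.12.

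The inhibitory SMAD *Smad6*, itself a target of BMP signaling, was at 1.76, 1.86 and 1.65 CPM in KO-Veh and 4.33, 3.27 and 4.23 CPM in KO-Nut3. It was at 1.85, 3.36 and 3.19 CPM in WT-Veh and 2.28, 3.38 and 1.18 CPM in WT-Nut3. The log2 fold change was 1.16 ± 0.21 (edgeR, adjusted *P* = 0.085; DESeq2, adjusted *P* = 0.017), with 21 to 78 reads in a library.

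Of the other targets, *Id1* and *Id3*, which encode inhibitors of neuronal basic helix-loop-helix factors, were higher in KO-Nut3 while *Id2* and *Id4* were not. *Id1* was at 9.24, 8.01 and 10.6 CPM in KO-Veh and 14.4, 14.4 and 12.8 CPM in KO-Nut3 (log2 fold change 0.58 ± 0.14; edgeR, adjusted *P* = 0.19). It was at 5.73, 10.3 and 9.68 CPM in WT-Veh and 7.71, 11.97 and 7.57 CPM in WT-Nut3. *Id3* was at 30.4, 26.4 and 25.5 CPM in KO-Veh and 32.4, 38.0 and 34.7 CPM in KO-Nut3 (log2 fold change 0.35 ± 0.10; edgeR, adjusted *P* = 0.31). It was at 23.5, 30.4 and 28.7 CPM in WT-Veh and 23.3, 29.1 and 24.4 CPM in WT-Nut3. For both genes the KO-Nut3 libraries were above all other 9, although neither difference passed the adjusted threshold.

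*Ltbp3*, a latent binding protein of TGF-beta, was at 33.6, 29.6 and 33.3 CPM in KO-Veh and 76.0, 39.7 and 51.0 CPM in KO-Nut3. It was at 36.5, 36.8 and 36.9 CPM in WT-Veh and 38.1, 51.6 and 35.3 CPM in WT-Nut3. The log2 fold change was 0.79 ± 0.19 (edgeR, adjusted *P* = 0.22; DESeq2, adjusted *P* = 0.0021). The highest values belonged to KO-Nut3 RH6, WT-Nut3 RH9 and KO-Nut3 RH13, the 3 libraries with the most *Ttr*.

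**Figure D3:**
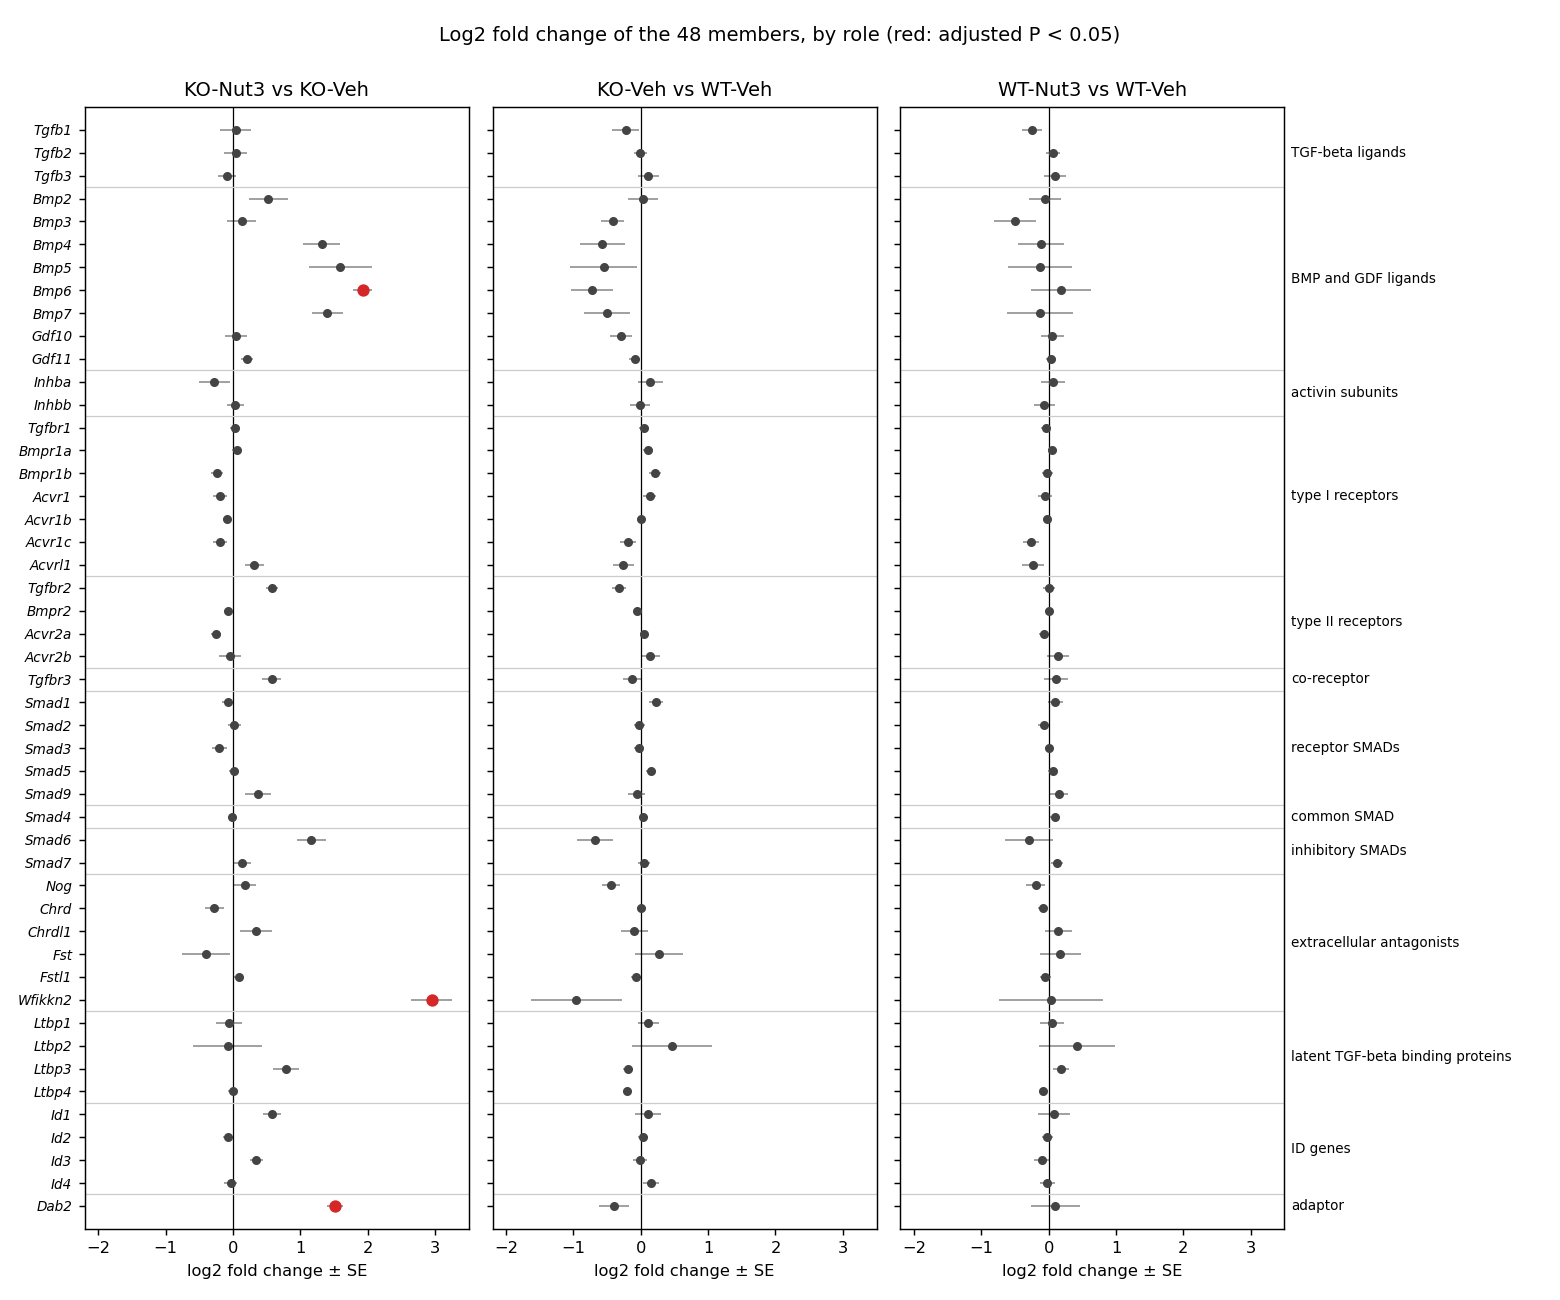
Log2 fold change ± SE of the 48 members, grouped by role, in KO-Nut3 vs KO-Veh, KO-Veh vs WT-Veh and WT-Nut3 vs WT-Veh (6 mice in each). Red points passed an adjusted *P*-value of 0.05 in edgeR, which only *Bmp6*, *Wfikkn2* and *Dab2* did, in the first comparison.

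Sequence before a RefSeq start is shown for *Dab2*, *Wfikkn2*, *Tgfbr2* and *Smad6*. It was taken from the RefSeq promoter set of GRCm38.p6, in which 35 of the 48 members were matched. Of the members given with values in every library, 14 had a window, so the genes shown are only a part of them. For each gene shown the KO groups did not overlap, but *Tgfbr2* and *Smad6* were not called in edgeR. Whether these genes moved together was not tested. Each window is the 250 bases before a RefSeq start, read 5′ to 3′ on the strand of the gene and ended where a GENCODE exon begins. For *Wfikkn2* that start lies inside the GENCODE span given above, so its printed bases are within the gene and not before it. Capitals mark the SMAD box CAGAC or its reverse complement GTCTG.

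*Dab2*, chr15:6299539-6299787, plus strand: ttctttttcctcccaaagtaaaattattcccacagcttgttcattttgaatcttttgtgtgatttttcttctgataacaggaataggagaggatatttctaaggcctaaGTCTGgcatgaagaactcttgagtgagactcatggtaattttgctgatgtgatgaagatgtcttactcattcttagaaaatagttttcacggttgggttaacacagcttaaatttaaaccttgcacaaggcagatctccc
*Wfikkn2*, chr11:94242708-94242829, minus strand: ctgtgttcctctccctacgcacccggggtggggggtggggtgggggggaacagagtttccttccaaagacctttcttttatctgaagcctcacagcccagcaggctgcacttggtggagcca
*Tgfbr2*, chr9:116175364-116175613, minus strand: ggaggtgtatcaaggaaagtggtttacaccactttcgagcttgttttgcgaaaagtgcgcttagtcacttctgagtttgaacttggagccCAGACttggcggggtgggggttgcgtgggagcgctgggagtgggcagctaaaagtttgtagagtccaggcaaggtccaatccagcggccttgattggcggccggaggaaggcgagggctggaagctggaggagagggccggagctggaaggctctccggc
*Smad6*, chr9:64022060-64022309, minus strand: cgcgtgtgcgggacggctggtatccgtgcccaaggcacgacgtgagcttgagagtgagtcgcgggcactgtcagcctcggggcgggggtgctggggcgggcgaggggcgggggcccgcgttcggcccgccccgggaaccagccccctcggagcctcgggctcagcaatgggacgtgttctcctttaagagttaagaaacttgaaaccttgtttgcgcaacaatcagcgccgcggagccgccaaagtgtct

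CAGAC or GTCTG occurred once in the full 250-base windows around the printed sequences of *Dab2* and *Tgfbr2* and not in those of *Wfikkn2* and *Smad6*. It occurs in 42.2% of all 32851 windows. The GC-rich SMAD element GGCGCC, present in 9.59% of all windows, and the palindrome GTCTAGAC, present in 0.167%, were not found in these 4 windows. *Dab2* has a second RefSeq start, and its window at chr15:6386498-6386747 overlaps an exon and is not printed. That window held GGCGCC and the SMAD box once each. The windows of *Bmp6* and *Id3* begin inside a GENCODE exon and are not printed. They held 1 SMAD box for *Bmp6* and 2 for *Id3*. The letters were searched on both strands, GGCGCC and GTCTAGAC read the same on each, and a match is a description of the sequence and not a binding site.

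The libraries with the most of the called members were also high in markers of tissue that borders the hippocampus, though not all 5 in each marker list. *Bmp6* was above 18 CPM in the 3 KO-Nut3 libraries, WT-Nut3 RH9 and WT-Veh RH5, and at most 8.67 CPM in the other 7. *Slc13a4*, a sulfate transporter listed under choroid plexus and singled out here after its values were seen, had the same 5 libraries on top, at 36.7, 37.3 and 29.4 CPM in KO-Nut3, 26.1 CPM in WT-Nut3 RH9 and 25.1 CPM in WT-Veh RH5, against 2.41 to 7.28 CPM in the others. The same 5 libraries were the highest for 8 of the 13 members that were higher in KO-Nut3, which were *Bmp4*, *Bmp6*, *Bmp7*, *Tgfbr2*, *Tgfbr3*, *Smad6*, *Wfikkn2* and *Dab2*. This order was held by 0.93% of all genes tested, and by 18.6% of the 992 genes that, like the 13, were higher in KO-Nut3 without overlap at an unadjusted *P*-value under 0.05. Of these 13 members, 12 had RH5 as the highest of the WT-Veh libraries and 12 had RH9 as the highest of the WT-Nut3 libraries, beside shares of 32.3% and 33.2% over all genes tested. Over all members these counts were 25 and 22. The shares over the 992 genes selected like the 13 were not computed, so all genes are an unlike reference here.

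The same 5 libraries were the highest for 5 of 13 fibroblast markers and 2 of 14 choroid plexus markers, and for no marker of the other 9 lists. The summed level of 13 choroid plexus markers, leaving out *Enpp2*, which oligodendrocytes also express, was 3602, 420 and 5133 CPM in KO-Nut3 and 4807 CPM in WT-Nut3 RH9. It was 67.3 CPM in WT-Veh RH5, of which *Slc13a4* made up 25.1 CPM and *Ttr* 9.56 CPM, and 39.1 to 58.9 CPM in the other 7 libraries. Without *Slc13a4* as well, WT-Veh RH5 was at 42.3 CPM, within the 31.9 to 56.5 CPM of the other 7, and with all 14 markers it was at 198 CPM, within their 156 to 223 CPM. The 13 fibroblast markers summed to 154, 298 and 121 CPM in KO-Nut3, 128 CPM in WT-Nut3 RH9 and 224 CPM in WT-Veh RH5, against 60.3 to 111 CPM in the other 7 libraries. Their most abundant gene, summed over the libraries, was *Dcn*. It was not higher in KO-Nut3, at 20.4, 56.5 and 44.4 CPM, than in KO-Veh, at 43.1, 56.8 and 56.6 CPM. KO-Nut3 RH8 had 314 CPM of *Ttr*, against 3091 and 4520 CPM in the other KO-Nut3 libraries, and the highest *Bmp6* level. The 6 border macrophage markers, led by *Mrc1*, summed to 14.97, 20.2 and 8.18 CPM in KO-Nut3, 10.1 CPM in WT-Nut3 RH9 and 12.97 CPM in WT-Veh RH5, against 4.62 to 8.26 CPM in the other 7 libraries.

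In KO-Nut3 vs KO-Veh, 5 of 14 choroid plexus markers tested (*Ttr*, *Folr1*, *Slc4a5*, *Tmem72* and *Slc13a4*) and 1 of 13 fibroblast markers (*Pcolce*) were called higher in edgeR, with median log2 fold changes of 4.47 and 1.37. DESeq2 called 13 of the 14 and 6 of the 13 higher, against 1.31% of the genes to which it gave an adjusted *P*-value. At an unadjusted *P*-value under 0.05 in edgeR all 14 choroid plexus markers tested and 12 of the 13 fibroblast markers were higher, and 13 and 6 of them were higher without overlap of the groups. *Kcnj13*, a potassium channel of choroid plexus epithelium, was at 0 in WT-Veh RH2 and KO-Veh RH10 and at 4.21, 0.917 and 6.32 CPM in KO-Nut3. No endothelial, mural, microglial, border macrophage, astrocyte, ependymal, oligodendrocyte, neuronal or thalamic marker was called in edgeR. DESeq2 called 1 of 8 mural markers (*Vtn*) and 1 of 6 border macrophage markers (*Cbr2*) higher. At an unadjusted *P*-value under 0.05, 6 of 8 endothelial, 2 of 8 mural, 3 of 6 border macrophage, 3 of 6 ependymal, 2 of 6 oligodendrocyte and 1 of 5 thalamic markers were higher, and no microglial, astrocyte or neuronal marker passed. All 3 KO-Nut3 libraries were above all 3 KO-Veh libraries for 6 endothelial, 4 mural, 2 border macrophage, 2 ependymal and 2 oligodendrocyte markers. What part these tissues had in the differences of the members was not tested.

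**Figure D4:**
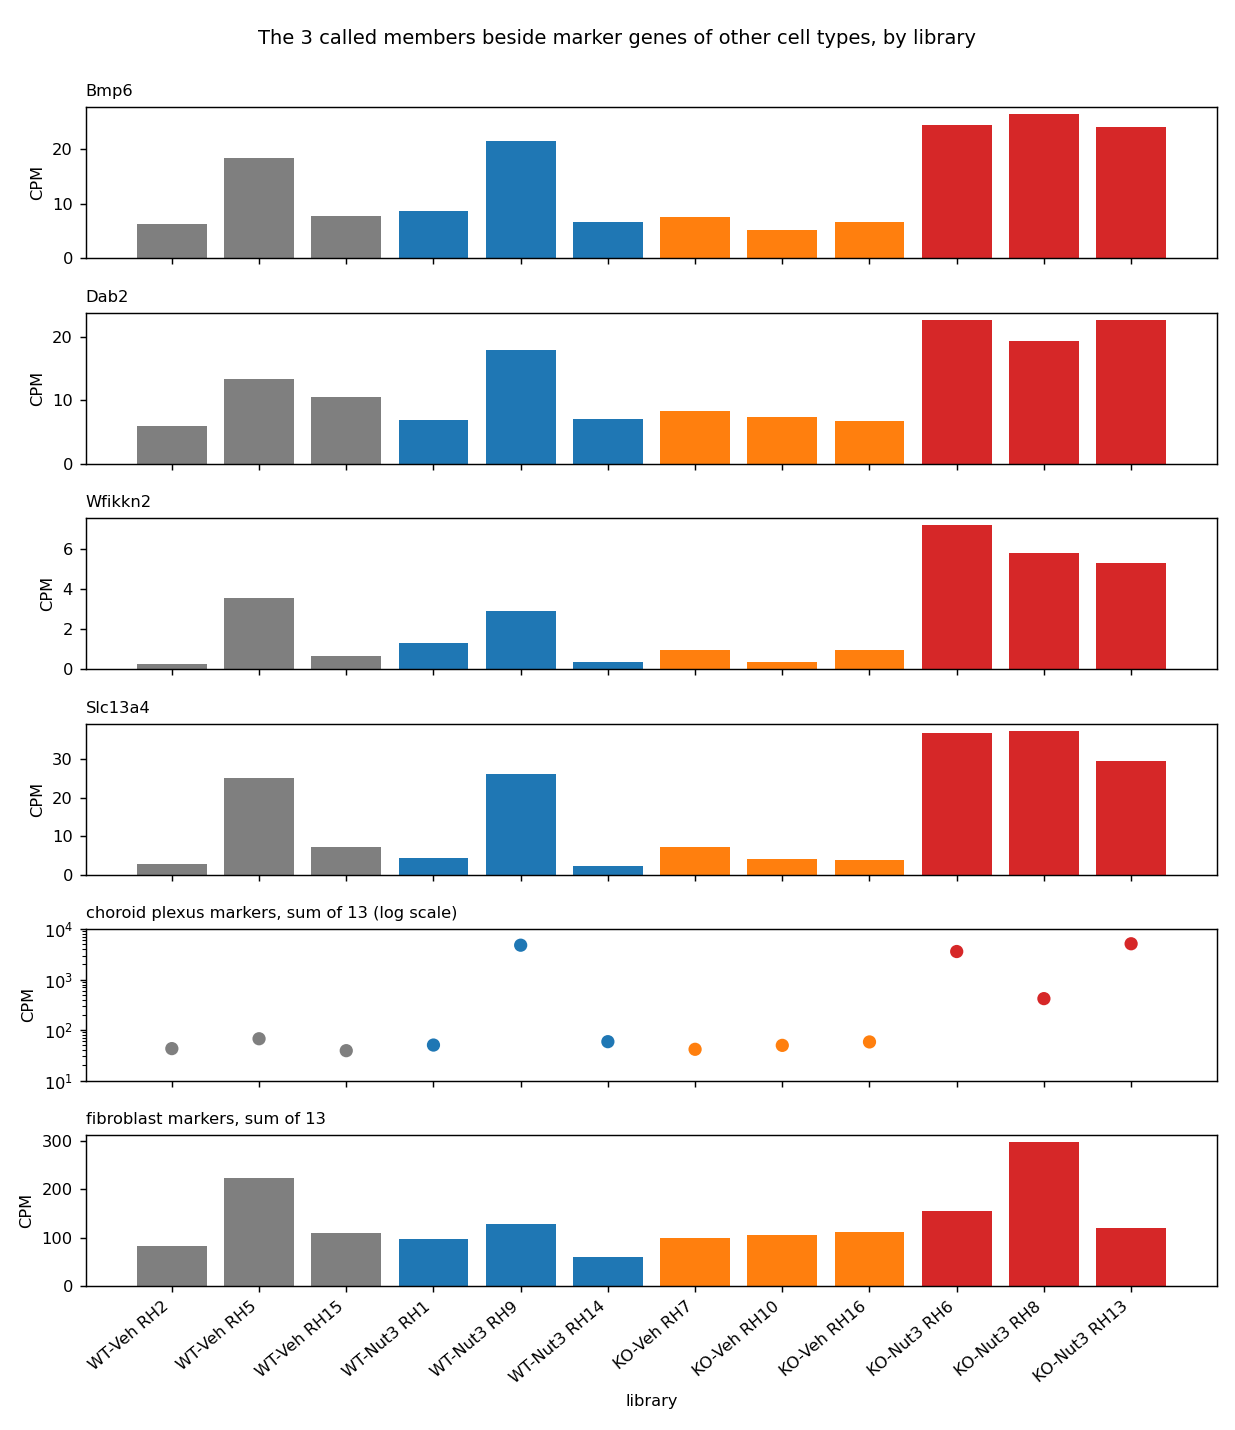
Level in CPM of *Bmp6*, *Dab2*, *Wfikkn2* and the marker *Slc13a4*, and summed level of 13 choroid plexus markers without *Enpp2* (points on a log axis) and of 13 fibroblast markers, in each of the 12 libraries (bars from 0, colored by group). The 3 members and the fibroblast sum have WT-Veh RH5, WT-Nut3 RH9 and the 3 KO-Nut3 mice as their 5 highest libraries, as has *Slc13a4*, which was picked for this order, whereas WT-Veh RH5 is at 67.3 CPM in the choroid plexus sum and at 42.3 CPM once *Slc13a4* is left out.

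The genotype under vehicle was examined by comparing KO-Veh with WT-Veh, which shares its KO-Veh mice with the comparison above. No member passed the adjusted threshold in edgeR, against 0.0177% of all genes, nor in DESeq2. At an unadjusted *P*-value under 0.05 there were 9 members (18.8%), against 7.2% of all genes. In 6 members (12.5%) every KO-Veh library was below every WT-Veh library, against 6.46% of all genes. They were *Gdf11*, *Tgfbr2*, *Bmpr2* (a type II BMP receptor), *Nog* (the BMP antagonist noggin), *Ltbp3* and *Ltbp4*. In the other direction, *Bmpr1b* was the 1 member (2.08%), against 5.9% of all genes. *Tgfbr2* had a log2 fold change of -0.32 ± 0.10 (edgeR, adjusted *P* = 0.61) and *Bmpr1b* of 0.22 ± 0.09 (edgeR, adjusted *P* = 0.66). *Bmp6* had a log2 fold change of -0.73 ± 0.31 (edgeR, adjusted *P* = 0.67), which was -0.11 when WT-Veh RH5 was left out. Markers of cell types moved in both directions in KO-Veh at an unadjusted *P*-value under 0.05. Lower were 4 of 8 endothelial, 3 of 8 mural, 3 of 13 fibroblast, 1 of 8 microglial and 1 of 14 choroid plexus markers. Without overlap, 5 endothelial, 2 mural and 2 fibroblast markers were lower. Higher were 4 of 6 ependymal (3 without overlap), 3 of 14 choroid plexus and 2 of 7 astrocyte markers. The only marker called in edgeR was 1 of 8 for hippocampal neurons, which was lower (adjusted *P* = 0.048). DESeq2 called 1 astrocyte marker higher. The part of these markers in the differences of the members was not tested.

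In wild-type mice Nutlin-3 gave no called member. WT-Nut3 vs WT-Veh had 0% of all genes called in edgeR and 1 member with an unadjusted *P*-value under 0.05, the type I receptor *Acvr1c* (2.08% of members, against 3.17% of all genes). DESeq2 called none either. No member had groups that did not overlap, whereas 3.6% of all genes were higher and 3.92% lower without overlap. For *Bmp6* the log2 fold change was 0.18 ± 0.45, for *Dab2* 0.10 ± 0.36 and for *Wfikkn2* 0.03 ± 0.77, and WT-Veh RH5 and WT-Nut3 RH9 stood above the other libraries of their groups for each gene. WT-Nut3 RH1 and RH14 were below the WT-Veh means of 10.8, 9.93 and 1.51 CPM of these genes. The positive sign therefore rests on WT-Nut3 RH9. Of the markers, 13 of 14 for choroid plexus were higher and 3 of 13 for fibroblasts lower in WT-Nut3 at an unadjusted *P*-value under 0.05. So were 3 of 6 oligodendrocyte and 2 of 6 ependymal markers, which were higher. The choroid plexus sum without *Enpp2* was 4807 CPM in WT-Nut3 RH9 but 50.5 and 58.9 CPM in RH1 and RH14. The fibroblast sum was 224 CPM in WT-Veh RH5, against 83.2 and 111 CPM in RH2 and RH15.

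KO-Nut3 was also compared with WT-Nut3, which asks for the genotype under Nutlin-3. No member was called in edgeR, against 0.00443% of all genes. DESeq2 called *Wfikkn2* (adjusted *P* = 0.020), which was 1 of the 7 genes it called among all genes. There were 11 members (22.9%) with an unadjusted *P*-value under 0.05, against 4.87% of all genes. In 10 members (20.8%) all KO-Nut3 libraries exceeded all WT-Nut3 libraries, against 5.3% of all genes. They were *Bmp4*, *Bmp6*, *Tgfbr1*, *Bmpr1a*, *Tgfbr2*, *Smad5*, *Wfikkn2*, *Id1*, *Id3* and *Dab2*. *Smad3* was the 1 member below, against 5.35% of all genes. The log2 fold changes were 1.01 ± 0.36 for *Bmp6*, 1.01 ± 0.33 for *Dab2* and 1.96 ± 0.49 for *Wfikkn2*, each with an adjusted *P*-value of 0.93 in edgeR. Without WT-Nut3 RH9, *Bmp6* (log2 fold change 1.70, adjusted *P* = 0.019) and *Dab2* (1.62, adjusted *P* = 0.015) were called in edgeR, among 7 of all genes. At an unadjusted *P*-value under 0.05, 11 of 13 fibroblast markers were also higher in KO-Nut3 (median log2 fold change 1.39). So were 2 of 8 endothelial, 2 of 6 border macrophage and 1 of 14 choroid plexus markers. The mural, ependymal, astrocyte and thalamic lists each had 1 marker higher, and 2 of 8 hippocampal neuron markers were lower. The part of these markers in the differences of the members was not tested.

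Whether the effect of Nutlin-3 differed between KO and WT mice was tested as an interaction over the 12 libraries. No member passed in edgeR, as 0% of all genes did, and DESeq2 called no member. There were 11 members (22.9%) with an unadjusted *P*-value under 0.05, all with a more positive change in the KO, against 4.17% of all genes. A more positive change in the KO at an unadjusted *P*-value under 0.05 was also found for 11 of 13 fibroblast markers (median difference 2.10 on the log2 scale), 4 of 8 endothelial, 2 of 8 mural, 2 of 6 border macrophage and 1 of 14 choroid plexus markers, whose part was not tested. The difference between the log2 fold changes was 1.75 ± 0.57 for *Bmp6*, 1.42 ± 0.46 for *Dab2*, 2.92 ± 0.99 for *Wfikkn2* and 0.58 ± 0.12 for *Tgfbr2*, and the adjusted *P*-value was 0.99 for each in edgeR. A call in KO mice and none in WT mice is therefore not shown to be a difference between genotypes.

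The pathway has further genes, of which 80 were listed and 73 had enough reads. None was called in KO-Nut3 vs KO-Veh in edgeR, with 7 higher and 1 lower at an unadjusted *P*-value under 0.05. These 8 were 10.96% of the 73, beside 7.6% of all genes tested. DESeq2 called 5 of them higher and 1 lower (*Junb*), against 1.31% and 0.033% of the genes to which it gave an adjusted *P*-value. By role, the 8 were 1 of 7 further receptors and co-receptors, 2 of 18 extracellular modulators, 2 of 9 genes of latent TGF-beta activation and 3 of 13 reported targets, with none among 11 ligands and 15 intracellular regulators. None of the 73 was called in any of the other 4 comparisons.

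The 3 with the smallest *P*-values were *Thbs1*, *Sostdc1* and *Msx1*. *Thbs1*, a matrix protein that can activate latent TGF-beta, was at 3.41, 2.20 and 2.22 CPM in KO-Veh and 6.66, 6.13 and 6.15 CPM in KO-Nut3 (log2 fold change 1.27 ± 0.21; edgeR, adjusted *P* = 0.056). It was at 2.03, 3.47 and 24.7 CPM in WT-Veh and 2.03, 4.77 and 2.24 CPM in WT-Nut3, so the highest library was WT-Veh RH15. *Sostdc1*, a BMP and WNT antagonist, was at 1.45, 1.41 and 3.13 CPM in KO-Veh and 22.7, 6.30 and 34.6 CPM in KO-Nut3 (log2 fold change 3.41 ± 0.57; edgeR, adjusted *P* = 0.056). It was at 1.67, 1.89 and 2.16 CPM in WT-Veh and 1.67, 23.6 and 2.36 CPM in WT-Nut3. *Msx1*, a homeobox target of BMP signaling, was at 5.37, 6.71 and 6.44 CPM in KO-Veh and 22.3, 10.3 and 27.0 CPM in KO-Nut3 (log2 fold change 1.69 ± 0.30; edgeR, adjusted *P* = 0.071). It was at 3.40, 7.20 and 5.51 CPM in WT-Veh and 6.29, 28.6 and 5.66 CPM in WT-Nut3. For *Sostdc1* and *Msx1*, as for *Ttr*, the 3 highest libraries were KO-Nut3 RH6, KO-Nut3 RH13 and WT-Nut3 RH9, followed by KO-Nut3 RH8. WT-Veh RH5 was at 1.89 CPM for *Sostdc1*, within the range of the low libraries, and at 7.20 CPM for *Msx1*, just above the 6.71 CPM of KO-Veh RH10.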

How the data were processed

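Poly(A) RNA-seq of hippocampus from 12 mice was analysed. The authors mapped reads to mm10 with STAR and deposited raw counts per gene without normalization (the annotation used for counting is not given in the sources used here). Counts over both strands were used, because each strand held about 50% of the reads, so a gene and its antisense partner cannot be told apart by strand. A deposited table with all libraries in one was not used. Names, coordinates and exon lengths came from GENCODE M21.

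Genes with more than 20 counts over the 12 libraries were tested by edgeR 4.0.16 (R 4.3.3; quasi-likelihood *F* test, two-sided), on the 6 libraries of each pair of groups or all 12 for the interaction, with TMM factors and a Benjamini-Hochberg adjusted *P*-value under 0.05. The SE is the log2 fold change divided by the square root of *F*, and the approximate 95% interval is the normal one. RPKM is CPM per kilobase of exon. DESeq2 1.42.0, other filters and scalings, a number block (library labels up to RH8 or from RH9) and leaving out each library were alternatives. Both tools were tried on simulated counts with known changes.

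The 48 members and the lists of further genes and markers were chosen with earlier results of these data known. Values are given for members that passed in any comparison, members whose KO-Nut3 and KO-Veh libraries did not overlap at an unadjusted *P*-value under 0.05, and the member with the largest change in each role. Nothing says whether the mice of a group were littermates. In the main fits a *P*-value weighs a difference against the spread within groups, over the 6 libraries of a pair or all 12 for the interaction.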

Additional observations from a re-analysis of the deposited data

Results flagged for a closer look

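*Tgfbr2* was picked out because the KO effect pointed in opposite directions under the 2 treatments, with no overlap in either. Every KO-Veh library was below every WT-Veh library, and all KO-Nut3 libraries exceeded all WT-Nut3 libraries. The interaction of genotype and treatment was 0.578 on the log2 scale (SE 0.12), with an unadjusted *P*-value of 0.00033 and an adjusted *P*-value of 0.99 in edgeR's quasi-likelihood test, so the difference did not pass the correction over all genes. Across the fits that left out 1 library it ranged from 0.52 to 0.65. The gene was picked for this pattern, so its unadjusted *P*-value is that of a selected gene. Among 8 endothelial markers, 5 were lower without overlap in KO-Veh vs WT-Veh and 2 higher without overlap in KO-Nut3 vs WT-Nut3. In the interaction, 4 of 8 endothelial and 11 of 13 fibroblast markers were more positive in the KO at an unadjusted *P*-value under 0.05 in edgeR.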

How the results depend on the processing

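No paired analysis was possible because each label number occurs once, in 1 group. With the number block as a term, the same 3 members were called in KO-Nut3 vs KO-Veh (0.0841% of all genes were called higher), and no member's call changed in the other comparisons. *Bmp6*, *Dab2* and *Wfikkn2* were also called with DESeq2 size factors, the filterByExpr filter and DESeq2. The number of members called in KO-Nut3 vs KO-Veh was 3 in edgeR, 9 in DESeq2, 10 when every gene with at least 1 count was tested and 0 when all 12 libraries were fitted together, where *Bmp6*, *Dab2* and *Wfikkn2* kept their log2 fold changes (1.93, 1.51 and 2.95) with an adjusted *P*-value of 0.30 each. Leaving out 1 library gave 2 to 7 members and 6 to 266 of all genes, against 45 with all 6 libraries. These were 7 members and 266 genes without KO-Nut3 RH8, and 4 members and 65 genes without KO-Nut3 RH6, the library with the thalamic marker. *Bmp6* and *Dab2* were called in all 6 of these fits and *Wfikkn2* in 4, missing without KO-Veh RH7 (adjusted *P* = 0.091) and without KO-Veh RH16 (adjusted *P* = 0.077). When every gene with at least 1 count was tested, 1 member was called in KO-Veh vs WT-Veh (*Bmp6*, lower; 272 of all genes), 1 in KO-Nut3 vs WT-Nut3 (*Wfikkn2*; 38 of all genes) and 6 in the interaction (291 of all genes). This setting also called 249 genes in WT-Nut3 vs WT-Veh, where the filtered genes gave 0, and 544 in KO-Nut3 vs KO-Veh. In KO-Nut3 vs WT-Nut3, DESeq2 called 1 member (7 of all genes). Leaving out 1 library gave 0 to 2 members there (0 to 7 of all genes). The other alternatives called no member in these comparisons, and none called a member in WT-Nut3 vs WT-Veh. The cause of these shifts was not tested. Of the 20 members whose fold change in KO-Nut3 vs KO-Veh was recomputed under each alternative, *Tgfb3* and *Smad4*, with differences near 0, changed sign. *Tgfb3* ranged from -0.17 to 0.0032 when 1 library was left out, and *Smad4* from -0.035 to 0.029, and *Smad4* was 0.0050 with the number block. Among all 240 recomputed values, 212 were classed as the same, 19 as stronger, 5 as weaker and 4 as reversed. For *Smad9*, KO-Nut3 RH8 and RH13 lay within the KO-Veh range, so its difference rests on KO-Nut3 RH6. With 3 mice a group and under 80 reads in a library for *Bmp4*, *Bmp5* and *Smad6*, small changes of these genes may be missed. DESeq2 called *Bmp4* and *Smad6* in KO-Nut3 vs KO-Veh at the same depth.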
